A study of Mus musculus with 2 samples.

Results

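The transcription factors and cofactors of the dermomyotome lineage were examined in brown preadipocytes (D0) and differentiated brown adipocytes (D7) of the mouse. The 9 genes, Myf5, Pax3, Pax7, En1, Meox1, Meox2, Six2, Eya1 and Eya2, were taken by name from the 23361 rows of the FPKM table that carried values, and all 9 were found. RNA-Seq was performed on 1 library per stage, and there were no replicates. The cells came from interscapular brown adipose tissue of newborn C57BL/6 mice (C57BL/6J in the methods of the study), without any transgene named in the labels. The labels call them primary cultures, whereas the methods of the study describe immortalization of the cells with a retroviral large T plasmid.

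According to the labels, the cells of both stages were grown in medium with 20% serum. The D0 cells had then been kept for 4 days in medium with serum (10%), insulin (0.1 μM) and the thyroid hormone T3 (1 nM). The D7 cells were then treated for 2 days with dexamethasone (2 μg/ml), the phosphodiesterase inhibitor IBMX (0.5 mM) and indomethacin (0.125 mM) as well. Afterwards they were returned to the medium with 10% serum, insulin and T3. The study's methods give growth in 10% serum and other concentrations of insulin and dexamethasone. They describe no 4 days with insulin and T3 before induction. FPKM is the number of sequenced fragments scaled for transcript length and for the depth of the library, so that levels of different genes can be set side by side. The depth behind the values was 21469676 fragments (D0) and 18266002 fragments (D7), as recovered from the steps between low values. Of 10 adipocyte markers, 7 were at least 2.0-fold higher at D7, and the other 3 were listed at 0 at D0 only. The uncoupling protein Ucp1 was listed at 0 at D0 and reached an FPKM of 4.57 at D7. Pparg, the master regulator of adipocyte differentiation, went from 3.83 to 128, and the fatty acid binding protein Fabp4 from 20.3 to 14391.

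The dermomyotome is the dorsal layer of the embryonic somite, from which skeletal muscle, dermis of the back and interscapular brown fat arise. Its cells express the paired box factors PAX3 and PAX7, the homeobox factors EN1, MEOX1 and MEOX2, and the sine oculis homeobox factor SIX2. EYA proteins do not bind DNA themselves but serve as coactivators of the sine oculis factors. MYF5 is the earliest of the myogenic bHLH factors in the embryo, and lineage tracing with Myf5, Pax7 or En1 alleles labels both skeletal muscle and interscapular brown fat.

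The members belong to families of close relatives, so the assignment of fragments between relatives bears on their values. Transcripts of each member were therefore compared with those of named relatives over windows of 90 bases, the length of the reads. The authors allowed up to 5 mismatches in an alignment. In the 15 comparisons of relatives made, 0 windows lay within 5 mismatches of each other. The closest window of Pax3 and Pax7 is shown because Pax3 was detected and Pax7 was not. It lies in the coding sequence, from exon 1 into exon 2, on the minus strand of mm10 (GRCm38) at chr1:78195469-78196736 for Pax3 and chr4:139830356-139832898 for Pax7, the intron included. The sequences were read from the GENCODE M21 transcripts 5′ to 3′, and capitals mark the 8 bases that differ.
Pax3: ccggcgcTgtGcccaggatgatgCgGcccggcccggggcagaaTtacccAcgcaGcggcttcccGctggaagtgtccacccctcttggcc
Pax7: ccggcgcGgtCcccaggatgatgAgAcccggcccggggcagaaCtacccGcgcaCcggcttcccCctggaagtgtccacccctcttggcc
In other comparisons, the fewest mismatches in 90 bases were 13 between Six2 and Six3, 13 between Six2 and Six4, 17 between Meox1 and Meox2, 9 between En1 and En2, 14 between Eya1 and Eya2, and 18 between Eya2 and Eya3. Between Myf5 and the other myogenic bHLH genes, the fewest were 15, with Myod1.

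The members covered a wide range of levels. En1 was the most abundant member in both libraries, and Myf5 and Pax7 were listed at 0 in both. Of the 7 members above 0 in both libraries, 1 (Eya2) was at least 2.0-fold higher at D7 and 2 (Six2 and Meox1) were lower. Among all 14986 genes above 0 in both libraries, 18.5% were higher and 13.2% were lower by this rule. The other 4, En1, Meox2, Pax3 and Eya1, had ratios of D7 to D0 between 0.728 and 0.776. The median difference of log2(FPKM + 0.1) was -0.36 over the 9 members and -0.38 over the 7 above 0, beside 0.0153 over the 14986 genes. These counts describe 2 libraries, and the spread between cultures of a stage is unknown. In bulk RNA, fewer cells that express a gene and less RNA per cell cannot be told apart.

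**Figure D1:**
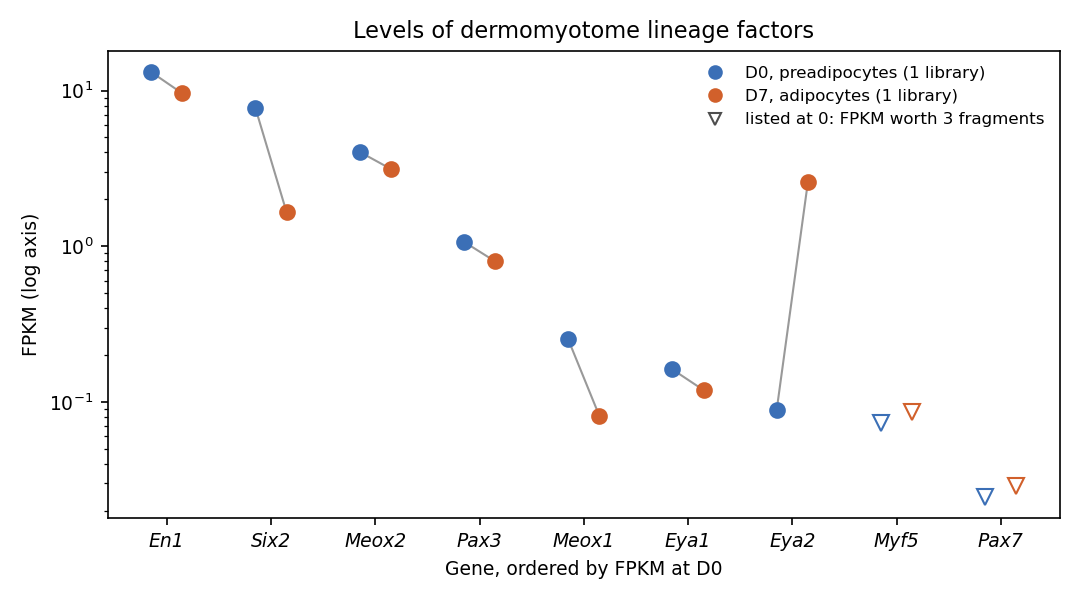
FPKM of the 9 members (log axis) in the D0 library (blue) and the D7 library (orange), with 1 library per stage. En1 was at 13.2 and 9.58, Six2 at 7.75 and 1.65, Eya2 at 0.0885 and 2.60, and open triangles give the FPKM worth 3 fragments for Myf5 and Pax7, which were listed at 0.

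En1 encodes the homeobox factor engrailed 1, which marks the central dermomyotome and the dorsal dermis. The gene (ENSMUSG00000058665.8) lies on the plus strand of chromosome 1 from 120602418 to 120607992, and no other annotated gene overlaps it. En1 stood at 13.2 FPKM at D0 on 671 fragments and at 9.58 FPKM at D7 on 415. At D0, 78.4% of all genes had a lower FPKM than En1, and at D7 72.8% did. The ratio of 0.728 had a 95% counting interval from 0.643 to 0.824, so that the D7 library was lower by more than counting error but did not reach 0.5. Its relative En2 was listed at 0 at D0 and had 1 fragment at D7, so En1 made up 100% of the summed En FPKM at D0 and 99.8% at D7.

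Six2 encodes a sine oculis homeobox factor, best known for keeping nephron progenitors undifferentiated in the kidney. The gene (ENSMUSG00000024134.11, chromosome 17, 85684277 to 85688274, minus strand) had 7.75 FPKM at D0 against 1.65 at D7. These values rest on 321 and 58 fragments. Its ratio was 0.213 with an interval from 0.158 to 0.282, that is, 4.70-fold lower at D7, and 437 of the 14986 genes had a smaller ratio. Six2 thus went from the member with the next highest level after En1 at D0 to a place behind En1, Meox2 and Eya2 at D7. The D7 library also held less of the proliferation genes, of which 11 of 12 were lower by at least 2.0-fold, with a summed FPKM of 134 at D0 and 53.6 at D7. Their part in the result was not tested.

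Six4 and Six5, relatives of Six2, had ratios closer to 1. Six4 had a ratio of 0.716 (0.579 to 0.880) and Six5 of 0.972 (0.793 to 1.19). Six3, the nearest coding gene on 1 side of Six2 at a distance of 54975 bp, was listed at 0 in both libraries, and Six6 had 1 fragment at D7 only. The level of En1 was 1.70 times that of Six2 at D0 and 5.81 times at D7, a comparison within each library that does not depend on the scaling between them.

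Eya2 showed the opposite difference. It encodes an EYA coactivator with phosphatase activity, and the gene (ENSMUSG00000017897.18) lies on the plus strand of chromosome 2 from 165595032 to 165771727. Its level was 0.0885 FPKM at D0, where about 4 fragments were behind it, against 2.60 at D7 with about 108 fragments. The Eya2 ratio of 29.3 had an interval from 12.1 to 119, and 191 of the 14986 genes had a larger ratio. The ratio was 14.3 after adding 0.1 to each FPKM and 3.30 after adding 1, and it stayed above 2.0 in both cases. The annotated genes Gm11460 and Gm28163 lie within the Eya2 locus on the opposite strand, and 0 of their exon bases overlap the 2963 exon bases of Eya2.

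Eya1, a coactivator needed for ear and kidney formation and for early muscle, was near the detection limit. The gene (ENSMUSG00000025932.14, chromosome 1, 14168954 to 14310235, minus strand) had 0.162 FPKM at D0 (about 14 fragments) against 0.119 at D7 (about 9). Its ratio of 0.735 had an interval from 0.289 to 1.88, so no difference was detectable at this depth. Eya3, which is not a member, was the most abundant EYA gene, with 10.3 FPKM at D0 against 10.7 at D7 and a ratio of 1.04 (0.952 to 1.13). Eya4 had an FPKM of 2.66 and 1.54, a ratio of 0.578 (0.470 to 0.708). Of the summed FPKM of the 4 EYA genes, Eya2 made up 0.670% at D0 and 17.4% at D7, Eya4 went from 20.1% to 10.3%, and Eya3 from 78.0% to 71.5%. The sum itself was 13.2 at D0 and 14.9 at D7.

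**Figure D2:**
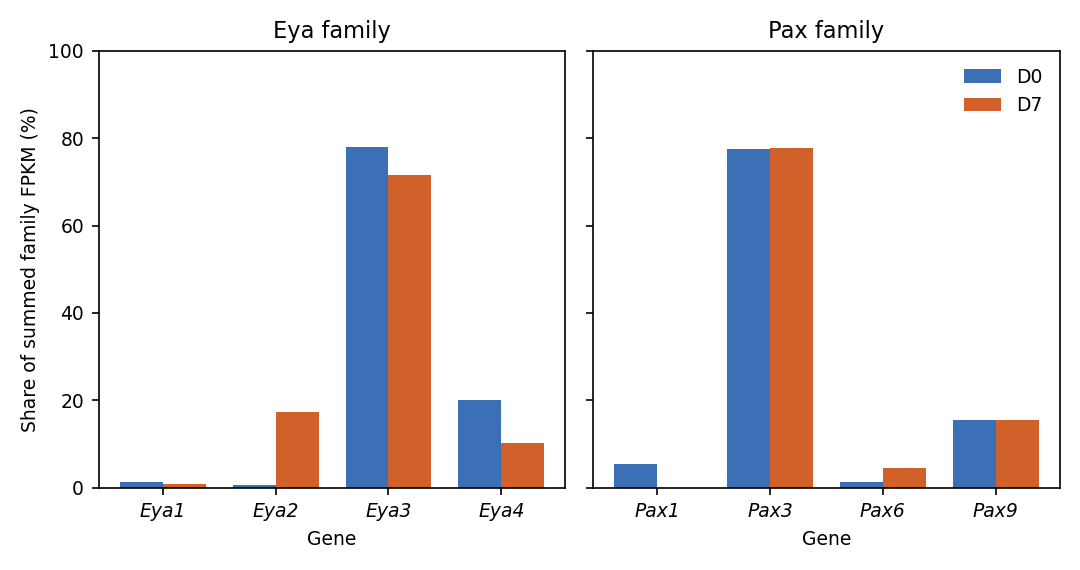
Share of each gene in the summed FPKM of Eya1 to Eya4 (left) and of Pax1 to Pax9 (right), in percent, with 1 bar per library. The share of Eya2 went from 0.670% at D0 to 17.4% at D7, that of Pax3 was 77.6% and 77.7%, and genes whose 2 FPKM values add up to 0.05 or less are left out.

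Markers of Schwann cells and neural crest were higher at D7, as Eya2 was. Of the 8 genes of that list, 7 were at least 2.0-fold higher at D7, and their summed FPKM was 8.25 at D0 and 22.7 at D7. Sox10, the defining factor of these cells, had 0.588 FPKM at D0 against 2.16 at D7. Macrophage markers were higher as well, with 9 of 10 past 2.0-fold and a summed FPKM of 154 and 569, and 2 of 8 endothelium markers were higher and 1 was lower. The part of these cells in the result for Eya2 was not tested.

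Meox2 and Meox1 encode mesenchyme homeobox factors, which act in somite patterning and limb muscle. Meox2 (ENSMUSG00000036144.6, chromosome 12, 37108540 to 37179534, plus strand) had an FPKM of 4.04 at D0 from 188 fragments and 3.13 at D7 from 124 fragments. The ratio of 0.776 had an interval from 0.614 to 0.979, which lies just below 1. Meox1 (ENSMUSG00000001493.9, chromosome 11, 101877510 to 101894374, minus strand) had 0.252 FPKM at D0 against 0.0811 at D7, from 11 and 3 fragments. Its ratio of 0.321 passed the 2.0-fold rule, but the interval from 0.0575 to 1.22 includes 1, so no difference of Meox1 was detectable at this depth. The ratio of Meox1 became 0.514 after adding 0.1 to each FPKM and 0.863 after adding 1, and it was then no longer past the rule. Meox2 made up 94.1% of the summed FPKM of both genes at D0 and 97.5% at D7.

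Pax3 and Pax7 encode the paired box factors that keep muscle progenitors in the embryo and, for PAX7, in adult muscle. Pax3 (ENSMUSG00000004872.15, chromosome 1, 78101267 to 78197134, minus strand) had 1.07 FPKM at D0 against 0.799 at D7, from about 85 and 54 fragments. Its ratio of 0.748 had an interval from 0.521 to 1.06, which includes 1. Pax7 (ENSMUSG00000028736.13, chromosome 4, 139737062 to 139833528, minus strand) was listed at 0 in both libraries. A count of 0 allows up to 3 fragments, which for Pax7 corresponds to 0.0246 FPKM at D0 and 0.0290 FPKM at D7. The measured FPKM of Pax3 was 43.4 times the limit of 3 fragments at D0 and 27.6 times at D7, without the counting error of Pax3. Against the upper ends of the Poisson intervals these multiples would be smaller. Pax3 made up 77.6% of the summed FPKM of the 9 PAX genes at D0 and 77.7% at D7. The sclerotome gene Pax9 accounted for most of the rest, with an FPKM of 0.214 and 0.160.

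Myf5 (ENSMUSG00000000435.1, chromosome 10, 107482908 to 107486134, minus strand) was listed at 0 in both libraries, which allows an FPKM of up to 0.0734 at D0 and 0.0864 at D7. The neighbouring myogenic gene Myf6, at a distance of 6719 bp, was likewise listed at 0 in both. Myod1, the myogenic factor of committed myoblasts, was listed at 0 in both, and Myog, the factor of differentiating myocytes, had 1 fragment at D7 only. The 4 myogenic bHLH genes thus had a summed FPKM of 0 at D0 and 0.0422 at D7. Of the 20 ribosomal protein genes checked, 0 were listed at 0. These are abundant genes, so the check cannot show whether transcripts of low level were missed. Of the genes named above for lineage tracing, Myf5 and Pax7 were thus not detected in either library at this depth, whereas En1 was the most abundant member.

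The order of the levels differed between the libraries. At D0 it was En1, Six2, Meox2, Pax3, Meox1, Eya1 and Eya2, followed by the genes listed at 0. The counting intervals of Meox1 (0.126 to 0.452), Eya1 (0.0859 to 0.264) and Eya2 (0.0223 to 0.209) overlapped, so their order at D0 is not determined, while those of En1, Six2, Meox2 and Pax3 did not overlap. At D7 the order was En1, Meox2, Eya2, Six2, Pax3, Eya1 and Meox1. Here Meox2 (2.61 to 3.74) overlapped Eya2 (2.13 to 3.14), Eya2 and Six2 (1.25 to 2.13) met at their ends, and Eya1 (0.0543 to 0.226) overlapped Meox1 (0.0167 to 0.237). The summed FPKM of the 9 members was 26.5 at D0 and 18.0 at D7.

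**Figure D3:**
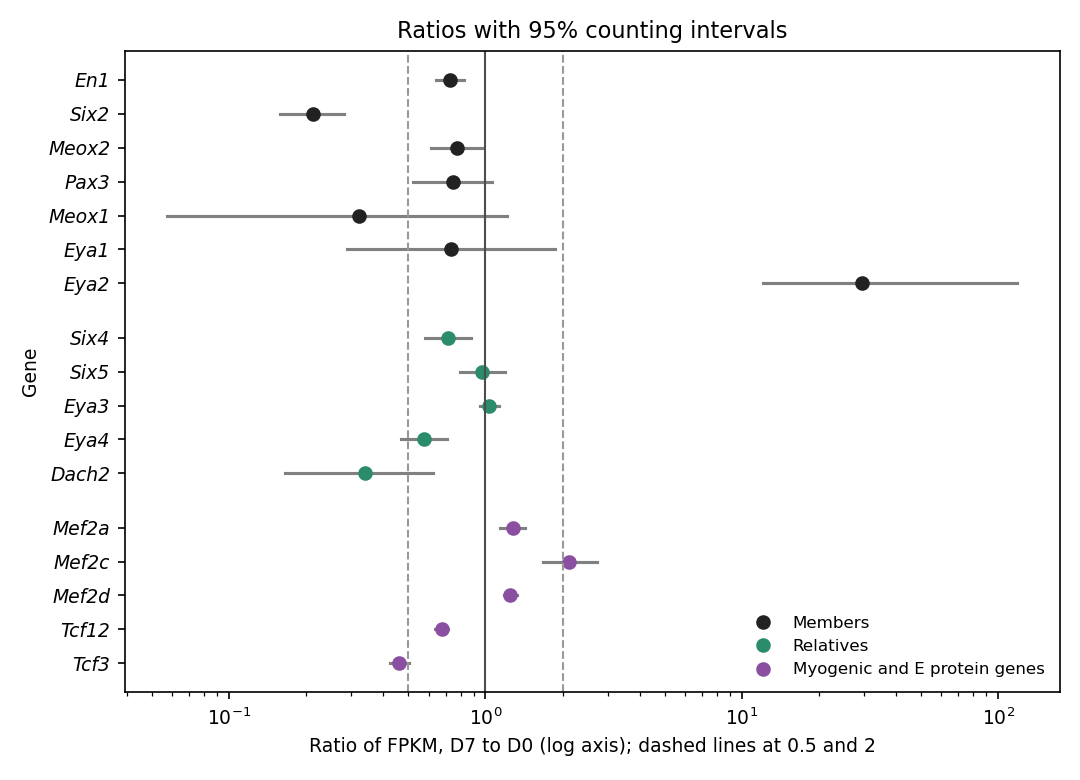
Ratio of FPKM at D7 to D0 (log axis) for the 7 members above 0 in both libraries (black), for relatives of Six2, Eya1 and Eya2 and for Dach2 (green) and for myogenic and E protein genes (purple). Bars are exact 95% intervals from fragment counts and cover counting error only; the bar of Six2 lies below 0.5, that of Eya2 above 2.0, and those of Meox1, Eya1 and Pax3 include 1.

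Of the 17 relatives of the members in the Pax, sine oculis, Eya, Dach and En families, 9 were above 0 in both libraries, of which 1 was higher and 1 was lower by at least 2.0-fold. The lower gene was Dach2, a cofactor of the sine oculis proteins, with 0.763 FPKM at D0 against 0.260 at D7 and a ratio of 0.340 (0.165 to 0.626). The higher gene, Pax6, had 1 and 2 fragments and a ratio of 2.35 (0.122 to 139). The median log2 difference of the list was 0 over its 17 genes and -0.14 over the 9.

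Among the 14 myogenic regulators and their partners, 8 were above 0 in both libraries, 3 were listed at 0 in both and 3 at D0 only. Mef2c, a MADS box factor that acts with the myogenic bHLH factors, was the gene higher by 2.0-fold, with 0.800 FPKM at D0 against 1.70 at D7 and a ratio of 2.12 (1.68 to 2.73). Mef2a had a ratio of 1.28 (1.14 to 1.43) and Mef2d of 1.25 (1.18 to 1.33). Tcf3, which encodes E proteins that pair with bHLH factors, was the lower gene, with a ratio of 0.462 (0.424 to 0.504), and Tcf12, another E protein gene, had a ratio of 0.675 (0.637 to 0.716). The Id genes, whose products bind E proteins and keep them from DNA, had ratios of 1.25 for Id1, 1.31 for Id2 and 0.796 for Id3. Id3 was the most abundant gene of the list, with 220 FPKM at D0.

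Of the 21 somite and dermomyotome regulators, 14 were above 0 in both libraries, 4 of them higher and 2 lower by at least 2.0-fold. Met, the receptor by which muscle progenitors leave the dermomyotome, stood at 2.91 FPKM at D0 against 9.02 at D7, a ratio of 3.10 (2.76 to 3.48). The other higher genes, Tbx6, Mesp2 and Gli1, had at most 9 fragments in a library. The lower genes were Meis1, a TALE homeobox factor, with a ratio of 0.440 (0.377 to 0.512), and Foxc2, with a ratio of 0.359 (0.270 to 0.472), whose locus lies within the readthrough gene Gm20388. Ripply1, a repressor of somite boundary factors, was listed at 0 at D0, with 56 fragments (6.17 FPKM) at D7, at least 22.1-fold higher against the limit of 3 fragments. Dmrt2, an activator of Myf5 in the somite, stood at 0.863 FPKM against 1.30, and the interval of the ratio from 0.973 to 2.33 includes 1. Tbx18 (0.801), Meis2 (0.804), Gli2 (1.31), Gli3 (0.569) and Foxc1 (1.03) had ratios between 0.5 and 2.0. Lbx1, the factor of migrating muscle progenitors, was listed at 0 in both.

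Of the 34 sarcomere and muscle metabolism genes, 20 were above 0 in both libraries, with 4 higher and 6 lower, and 10 were listed at 0 at D0 only. Muscle creatine kinase Ckm was listed at 0 in both libraries, and embryonic myosin Myh3 had 2 and 1 fragments. Skeletal actin Acta1 had 45.4 FPKM at D0 against 1.73 at D7, a ratio of 0.0381 (0.0272 to 0.0519), in a locus that Gm20388 covers on the opposite strand, while myoglobin Mb was listed at 0 at D0 and stood at 12.1 FPKM at D7, at least 76.2-fold higher. The fast myosin gene Myh1 had 3 fragments at D0 against 60 at D7, and its ratio was 23.5 (7.67 to 117), with the antisense gene Myhas in its locus. Myl1 and Myh2, which encode a myosin light chain and a fast myosin heavy chain, had 0 fragments each at D0 and 26 and 16 at D7. The summed FPKM of the list was 65.8 at D0 and 33.5 at D7, a difference that rests on Acta1. Without Acta1 the sums were 20.4 and 31.8, and without Acta1 and Mb they were 20.4 and 19.6. Of 16 markers of myoblasts and satellite cells with values, 3 were higher and 4 lower, among them Itga7 (ratio 3.06), Ncam1 (0.124), Megf10 (0.143) and Vcam1 (0.432). M-cadherin Cdh15 had 5 fragments at D0 and 0 at D7.

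Other compartments of the somite were covered by lists of their own. Of the 9 sclerotome and syndetome genes, 4 were lower and 0 higher. Scx, the factor of tendon progenitors, had 8.03 FPKM at D0 against 0.574 at D7, a ratio of 0.0715 with 9 fragments at D7, and the tendon gene Tnmd had 184 and 22.6, a ratio of 0.123 (0.111 to 0.135). The locus that the table gives for Scx also spans Mroh1 and Bop1, so the value of Scx is uncertain. Of the 9 dermis genes, 1 was higher and 2 were lower, and the most abundant, Prrx1, had a ratio of 0.938 (0.914 to 0.962). Of the 17 brown fat determination genes, 5 were higher, among them Pparg, Cebpa, Ebf1 and Zfp423, and 1, Ybx1, was lower with a ratio of 0.492 (0.474 to 0.510). Zic1, another marker of interscapular brown fat, whose locus overlaps Zic4, had an FPKM of 6.51 and 3.97.

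**Figure D4:**
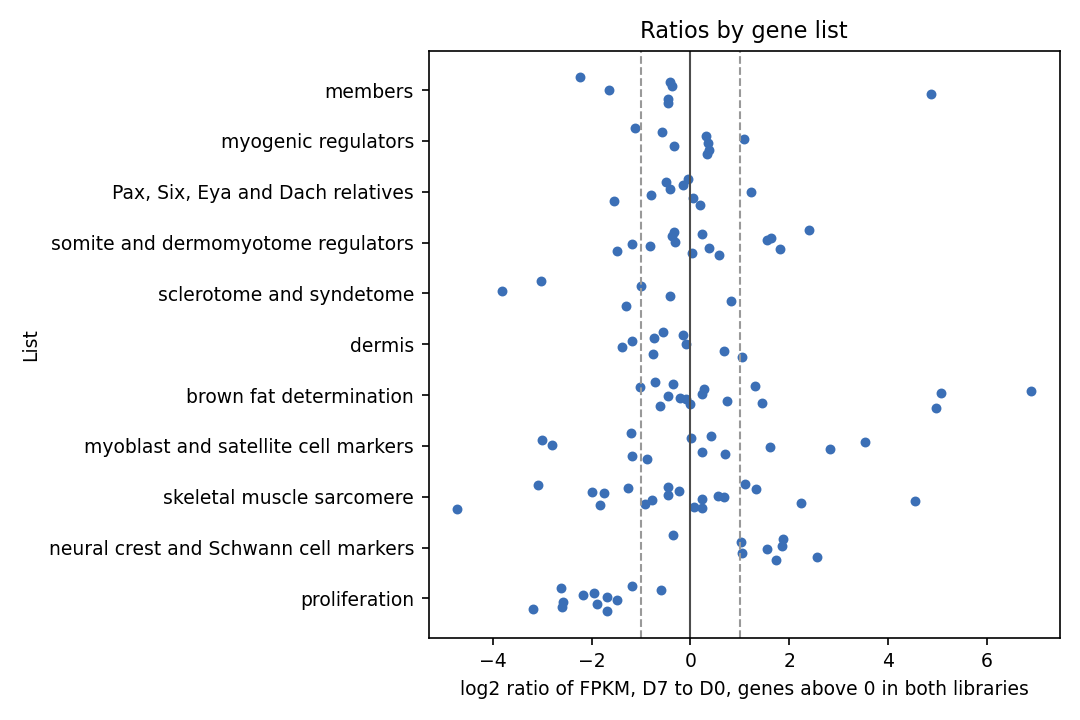
log2 ratio of FPKM at D7 to D0 for the genes of each list that were above 0 in both libraries, with 1 point per gene and dashed lines at 2.0-fold. Of the 7 member points, 6 lie left of 0, and Eya2 at 4.87 is far to the right.

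Promoter windows of 3 members are shown, those of En1, with the highest level, of Six2, with the lowest ratio, and of Myf5, listed at 0 in both libraries. They are bases before the annotated start, 5′ to 3′ along the gene, from the RefSeq promoter table (GRCm38.p6), which held 5 of the 9 members. Bases that GENCODE places within the transcript are left out. They lie at chr1:120602237-120602417 on the plus strand for En1, at chr17:85688275-85688504 on the minus strand for Six2 and at chr10:107486135-107486384 on the minus strand for Myf5. Capitals mark matches on either strand to the CCAAT box, to CACCC, a sequence bound by KLF factors, or to the TATA box sequence TATAAA.
En1: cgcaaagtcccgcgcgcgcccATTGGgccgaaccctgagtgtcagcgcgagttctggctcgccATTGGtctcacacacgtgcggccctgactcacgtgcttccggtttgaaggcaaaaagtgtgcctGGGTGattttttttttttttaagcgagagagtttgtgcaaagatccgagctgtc
Six2: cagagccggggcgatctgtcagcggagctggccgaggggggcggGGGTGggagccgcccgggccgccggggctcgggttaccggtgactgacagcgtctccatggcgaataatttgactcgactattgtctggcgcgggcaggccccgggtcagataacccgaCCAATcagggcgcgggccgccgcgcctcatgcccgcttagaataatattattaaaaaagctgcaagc
Myf5: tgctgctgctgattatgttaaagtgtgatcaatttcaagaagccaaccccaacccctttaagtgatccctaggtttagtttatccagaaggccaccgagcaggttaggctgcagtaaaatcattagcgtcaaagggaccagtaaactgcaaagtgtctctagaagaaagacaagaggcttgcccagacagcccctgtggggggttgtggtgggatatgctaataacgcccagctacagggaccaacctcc
In 250 bases before the start, the Six2 promoter held 26 CpG dinucleotides and was 64.8% G or C, and 90.4% of the 32851 promoters in the table held fewer CpG. The En1 promoter held 19 CpG, and the Myf5 promoter held 3, with 48.8% G or C. Six2 and En1 each had 1 match to CACCC, and Myf5 had 0, beside 52.0% of all promoters with a match. CCAAT was found 2 times in En1 and 1 time in Six2, and in 33.8% of all promoters. TATAAA was found in none of these 3 windows and in Meox2 1 time, starting 29 bases before the start, and in 12.4% of all promoters. Of the other member windows, that of Pax7 held 5 matches to CACCC and that of Meox2 held 0. The Pax7 window lies before the RefSeq start but wholly within the transcript as GENCODE annotates it, so it may not be promoter sequence. No promoter entry was given for Pax3, Meox1, Eya1 and Eya2.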

How the data were processed

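RNA-Seq reads were processed by the authors, who discarded reads of low quality, duplicates and rRNA and aligned the remainder with SOAP2 to the genome (mm10) and to genes, whereas the processing notes in the labels name Bowtie2. The authors deposited 1 FPKM value per gene and library. Libraries were made with degradation of the second cDNA strand, which keeps the strand, but whether the counting used it, and with which annotation, is not given in the sources used here. Of 27324 rows, 3963 held no values and were not used. Members and gene lists were chosen with earlier results of these data known.

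Ratios of D7 to D0 were computed without a pseudocount or rescaling for genes above 0 in both libraries, and a gene was counted as higher from 2.0 upward and as lower from 0.5 downward. With 1 library per stage, no test was possible and no p-value is given. Fragments behind each FPKM were recovered with a scale set on 649 single-exon genes. Lengths were shortened by 179 bp (D0) and 182 bp (D7), which made 100% of 92 and 98 low values (at most 20 fragments) whole within 0.1. Elsewhere the length used was that of the annotated transcript at the table's locus, or else of another transcript of the gene. In 4 of the 7 members above 0 fragments were whole in both libraries, and those of the others are approximate. Intervals are exact Clopper-Pearson (ratios) and Poisson (levels) intervals at 95% and cover counting error only.

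Named genes are all members, genes of the 3 lists closest to them that reach an FPKM of 0.5 or pass 2.0-fold with at least 10 fragments, leading genes of the other lists, and defining markers. Outside this rule, Pax6, Tbx6, Mesp2, Gli1, Lbx1, Pax9, En2, Six3, Six6, Sox10, Cdh15, Mb, Myh1, Myh2, Myl1, Prrx1, Zfp423 and Zic1 were named after their values were seen. Scripts were tested on simulated data. Alternatives were pseudocounts, 4 scalings, summing of rows, filters and a threshold of 4.0. Software was scipy 1.17.1, pandas 2.3.3 and numpy 2.4.6 under Python 3.11.15, with matplotlib 3.10.9 for plots.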

Additional observations from a re-analysis of the deposited data

How the results depend on the processing

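The number of members higher at D7 was 1 in all 11 alternatives run for it. The number lower was 2, and it was 1 with a pseudocount of 0.1 or 1, with a filter at a mean FPKM of 1 and with a threshold of 4.0-fold. In each of these Meox1 was the member lost, which rested on 11 and 3 fragments and a ratio of 0.321. Of 49 member ratios under alternatives, 0 changed direction and 45 stayed within the counting interval of the reported ratio. The ratio of Six2 ranged from 0.167 to 0.303 and that of Eya2 from 3.30 to 30.3. Dividing each library by its median after a floor of 0.01 shifted all log2 ratios by -0.35, and En1 was then at 0.570 and Meox2 at 0.608. The genes called by the 2.0-fold rule then numbered 2006 higher and 3255 lower, against 2767 and 1980 without rescaling. With scaling to equal summed FPKM (TPM) they numbered 2714 higher and 2065 lower, with the median ratio 2905 and 1836, and with the upper quartile 2757 and 1986. Of the 4 scalings, only the floor with the library median thus gave more lower than higher genes. The study itself reported more lower than higher genes. The median log2 difference of the members was run with other pseudocounts, with scaling by the median ratio and with a filter at a mean FPKM of 0.1. In these it ranged from -0.41 to -0.20. It was not computed after the floor and division by the library median, which shifts it further down. Depth limits Meox1, Eya1 and Eya2, with few fragments in at least 1 library, and Myf5 and Pax7, with 0. No paired analysis was possible because each stage has 1 library.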
